A study of Mus musculus with 18 samples.

Results

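The 5′ fragments of glycine tRNAs, up to those cut at the anticodon, were described in mouse lung. They were chosen as the small RNAs in the deposited tsRNA (tRNA-derived small RNA) tables whose name contains Gly and whose listed type is tRF-5b, tRF-5c or tiRNA-5. The rule used no measured level and gave 29 of the 193 tsRNAs listed. The study asked how mesenchymal stem cells alter tsRNA and mRNA in a mouse model of chronic obstructive pulmonary disease (COPD). The BMSC-treated group was the COPD model given 4000000 BMSCs, the labels' name for the stem cells, in 100 µl of phosphate-buffered saline (PBS) through the tail vein. In the COPD model group, mice breathed cigarette smoke, were given an extract of it by intraperitoneal injection, and received PBS. The control group received PBS. Each group had 3 tsRNA libraries and 3 separate mRNA libraries from lung. The labels used here give no strain, sex, age or duration of exposure, do not say whether a library is 1 mouse, and name no batch of library preparation. The p-values below therefore measure the spread between these libraries, and a step done separately for each group cannot be told apart from the treatment.

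A tRNA folds so that its anticodon sits at the tip of a loop, and nucleases such as angiogenin cut in that loop when cells are stressed. The cut leaves a 5′ and a 3′ piece, called tiRNAs, and the 5′ pieces of glycine and glutamate tRNAs are among the most abundant tRNA fragments reported in mammalian tissue and blood. Shorter pieces of the 5′ arm are called tRF-5. Among the members, the type followed the length: the tRF-5b was 23 nucleotides long, the 22 tRF-5c were 28 to 32 and the 6 tiRNA-5 were 33 or 34. In lung tissue, fewer cells of a type and less RNA per cell cannot be told apart.

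The most abundant ladder came from tRNA-Gly-GCC-2, a sequence that the table assigns to 3 tRNA genes and names Gly-GCC-2-M3. Its 4 longest members are printed because the group differences below lie in where they end. Capitals mark the base just before the anticodon and any anticodon base that follows it.

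30-mer of Gly-GCC-2-M3: gcattggtggttcagtggtagaattctcgc
31-mer of Gly-GCC-2-M3: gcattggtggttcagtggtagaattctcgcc
32-mer of Gly-GCC-2-M3: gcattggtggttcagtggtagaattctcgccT
33-mer of Gly-GCC-2-M3: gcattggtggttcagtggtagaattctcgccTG

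The parent tRNA was 71 bases long without its CCA tail and had the anticodon at bases 33 to 35. The 32-mer therefore stopped right before the anticodon, the 31-mer stopped 1 base earlier, and the 33-mer took in the first anticodon base. The GCC and CCC families shared these positions. In tRNA-Gly-TCC-1, with 72 bases, the anticodon was at bases 34 to 36, so that its 32-mer stopped 1 base short of the anticodon and its 34-mer held the first anticodon base.

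The other families are shown by their first 32 bases, because how far they differ from Gly-GCC-2-M3 decides how safely their reads can be told from it. Capitals mark the bases that differ from Gly-GCC-2-M3.

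Gly-GCC-1: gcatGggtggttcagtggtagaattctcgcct
Gly-CCC-3-M2: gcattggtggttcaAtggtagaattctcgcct
Gly-CCC-2: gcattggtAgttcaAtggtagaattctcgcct
Gly-CCC-1: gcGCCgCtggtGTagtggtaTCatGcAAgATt
Gly-TCC-1: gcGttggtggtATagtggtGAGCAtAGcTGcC

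Counted from the 5′ end, with the Gly-GCC-2-M3 base first, Gly-GCC-1 differed by T5G, Gly-CCC-3-M2 by G15A, and Gly-CCC-2 by G9A and G15A. Gly-CCC-1 and Gly-TCC-1 each differed at 13 of these 32 bases. The one member with anticodon ACC is printed with its difference from valine tRNAs in capitals.

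23-mer of Gly-ACC-1: gtttccgtagtgtagtggttaGc

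Of its 23 bases, 22 were shared with tRNA-Val-AAC-1, tRNA-Val-AAC-5, tRNA-Val-CAC-1 and tRNA-Val-CAC-2, each of which differed from it by G22T. The RefSeq annotation of GRCm38.p6, the patched form of mm10, lists 28 nuclear glycine tRNA genes on 9 chromosomes: 14 with anticodon GCC, 7 with TCC, 6 with CCC and 1 with ACC. The ACC gene, n-TGacc1, lies at chr11:48823728-48823801. A cluster at chr1:171037997-171102827 holds 4 GCC and 5 TCC genes. RefSeq and the tables name tRNA genes differently, so no fragment was placed on a gene.

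The 9 tsRNA libraries held 440448 to 1742029 listed counts, and the members were counted 315502 to 1558433 times in each. All 29 members had at least 1 count in every library, and 23 of them had at least 20 CPM, the deposited counts scaled to library size, in every library. The 3 shallowest libraries were BMSC-treated 2, COPD model 3 and control 2. They also stood apart in content: mitochondrial serine tRNA fragments made up 21.5%, 10.2% and 17.8% of their listed counts, against 4.71% to 6.6% in the other 6 libraries. The mRNA of the lungs carried lung markers in every library, with the surfactant gene Sftpc between 614 and 3249 FPKM, while the 2 liver markers summed to 4.86 FPKM at most. Other markers were less even. The lung markers, Scgb1a1 included, summed to 164251 to 251364 FPKM in COPD model, 7506 to 102215 in control and 9888 to 37183.5 in BMSC-treated lungs. Scgb1a1 alone made up most of each sum, at 159371 to 248461, 6546 to 99536 and 9073 to 34868 FPKM in that order. The sums thus do not describe the other lung markers. Heart muscle markers summed to 18.9 to 56.6, 6.65 to 365 and 16.5 to 181 FPKM in the same order. Neutrophil markers summed to 116 to 261, 136 to 864 and 158 to 277 FPKM. Red cell markers summed to 366 to 1275, 822 to 2009 and 672 to 1726 FPKM, and platelet markers to 59.2 to 110, 47.7 to 230 and 99.4 to 276 FPKM. B cell markers summed to 5.08 to 20.5, 6.54 to 19.2 and 5.28 to 90.1 FPKM, and T cell markers to 2.49 to 4.83, 1.65 to 9.10 and 3.25 to 11.9 FPKM.

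Glycine 5′ fragments were the bulk of the tsRNA in every library. They took 86.9%, 65.7% and 89.5% of the listed counts in BMSC-treated lungs, 87.6%, 84.6% and 80.7% in COPD model lungs and 87.5%, 71.3% and 85.8% in control lungs. The groups overlapped, and the lowest library of each group was its shallowest. The 95% Wilson interval of each share was at most 0.269 percentage points wide and covers counting error only. With mitochondrial serine taken out of the total, the share was 90.2% ± 5.65 in BMSC-treated, 90.7% ± 1.47 in COPD model and 90.1% ± 3.16 in control lungs (SD, n = 3 each). The part of the mitochondrial fragments in the lower shares was not tested. Of all reads that the deposited CPM were scaled to, the members took 29.4% to 61.4%. By comparison, the 24 nuclear glutamate 5′ fragments, another well-known source of 5′ pieces, took 3.34% to 5.89% of the listed counts, and the 46 nuclear 5′ fragments of other tRNAs took 1.97% to 5.07%.

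Within the glycine members, 1 anticodon held nearly all counts and 1 family most of them. The 12 GCC members took 98.9% to 99.5% of member counts. Gly-GCC-2-M3 alone took 92.4%, 89.2% and 95.6% in BMSC-treated, 93.4%, 90.6% and 93.4% in COPD model and 92.3%, 91.7% and 90.7% in control lungs. Gly-GCC-1 took 3.81% to 9.7%, the 10 CCC members together 0.278% to 0.632%, the 6 TCC members 0.216% to 0.586%, and the ACC member 0.00116% to 0.0134%. The 32-, 31- and 30-mers of Gly-GCC-2-M3 made up on average 47.7%, 25% and 15.2% of the members' CPM. At the other end, 11 of the 29 members averaged under 100 CPM.

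The ladder of Gly-GCC-2-M3 had the same order in all 9 libraries at its top: the 32-mer was the most abundant, then the 31-mer, then the 30-mer. On both sides the other lengths were far less abundant. The 33-mer, which reaches into the anticodon, took 1.38% to 5.34% of the family, the 28-mer 0.388% to 1.33% and the 29-mer 0.22% to 0.796%. In every library the 28-mer was more abundant than the 29-mer.

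What separated the groups was the balance of the 32-mer and the 31-mer, which differ by a single 3′ base. The 32-mer made up 41.1%, 48% and 41.1% of Gly-GCC-2-M3 counts in BMSC-treated lungs, 62.3%, 59.7% and 58.3% in COPD model lungs and 51.6%, 54.7% and 51.8% in control lungs. No library of one group fell within the range of another: the COPD model was highest, control was between and BMSC-treated was lowest. The group means were 43.4% ± 4.01 in BMSC-treated, 60.1% ± 2.03 in COPD model and 52.7% ± 1.74 in control lungs (SD, n = 3 each). The COPD model was thus 7.46 percentage points above control, and the BMSC-treated group was 16.7 points below the COPD model and 9.25 points below control.

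The 31-mer did the opposite. It made up 31.8%, 33.3% and 32.3% of the family in BMSC-treated lungs, 22.5%, 21.9% and 21.5% in COPD model lungs and 25.6%, 27.2% and 27.5% in control lungs. Again the 3 groups did not overlap. The 30-mer was less regular, with 22.2%, 13.8% and 22.4% in BMSC-treated, 11.4%, 12.2% and 17.7% in COPD model and 16.6%, 13.8% and 13.9% in control lungs, and its groups overlapped. The Wilson intervals of these shares were at most 0.369 points wide and cover counting error only, not the spread between libraries. Without the 3 shallowest libraries the differences in the 32-mer share were larger in size: 9.36 points for COPD model minus control, -19.9 for BMSC-treated minus COPD model and -10.6 for BMSC-treated minus control. These measures were chosen after the values had been seen, so they are given without a test.

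As a ratio within a library, which no scaling between libraries can alter, the log2 of 32-mer over 31-mer counts of Gly-GCC-2-M3 was 0.37, 0.53 and 0.35 in BMSC-treated, 1.47, 1.45 and 1.44 in COPD model and 1.01, 1.01 and 0.91 in control lungs. The spread inside a group was small: SD 0.10 in BMSC-treated, 0.02 in COPD model and 0.05 in control lungs. The group means differed by 0.47 for COPD model minus control, -1.03 for BMSC-treated minus COPD model and -0.56 for BMSC-treated minus control.

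Gly-GCC-1, which has its own base at position 5, showed the same order of groups. Its log2 ratio of 32-mer to 31-mer was 0.46, 0.95 and 0.38 in BMSC-treated, 1.53, 1.60 and 1.40 in COPD model and 1.26, 1.15 and 1.19 in control lungs, again with no overlap between any of the groups. Its 32-mer share overlapped between COPD model and control lungs, however, at 59% ± 3.41 and 55.4% ± 1.85 (SD, n = 3 each), and between BMSC-treated and control lungs, at 43.6% ± 9.94 in the treated ones. In Gly-CCC-3-M2 the log2 ratio was 0.57, 0.54 and 0.40 in BMSC-treated, 1.45, 1.45 and 1.54 in COPD model and 1.28, 1.47 and 0.97 in control lungs, so that the COPD model and control overlapped. In Gly-CCC-2 it averaged 1.28 ± 0.49 in BMSC-treated, 2.05 ± 0.20 in COPD model and 1.86 ± 0.30 in control lungs, and only BMSC-treated and COPD model lungs did not overlap. Gly-TCC-1 differed from the others: its 32-mer outnumbered its 31-mer at a log2 ratio of 3.30 to 4.54 in every library, and all groups overlapped.

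The same ratio was taken for every tRNA with both a 32-mer and a 31-mer in the table, 17 in all, of which 5 were the glycine families above. Equal lengths need not lie at equal distances from the anticodon. In Gly-TCC-1 the 32-mer stops 1 base short of it, and tRNA-Glu-CTC-1, tRNA-His-GTG-2 and tRNA-Lys-CTT-3 have their tiRNA-5 at 34 nucleotides. The ratios of these tRNAs may thus compare other end positions than those of the GCC and CCC families. The COPD model was above control without overlap in 2 of the 5 glycine families, against 11.8% of all 17 tRNAs and 0 of the 12 others. The BMSC-treated group was below the COPD model without overlap in 4 of 5 glycine families, against 23.5% of all 17 and again 0 of the 12 others. It was below control without overlap in 3 of 5 glycine families, against 23.5% of all 17. That share includes 1 of the 12 others, tRNA-His-GTG-2. Each of these shares counts only the direction of the glycine families, chosen after the values had been seen. In the other direction, BMSC-treated lungs were above the COPD model without overlap for tRNA-Lys-CTT-3 and tRNA-Lys-TTT-1, by 0.85 and 0.47 in log2 ratio. For tRNA-Lys-CTT-3 they were also above control without overlap. In either direction, COPD model and control did not overlap in 4 of the 12 others, beside 2 of 5 glycine families. Where other tRNAs separated the COPD model from control, they did so in the other direction: tRNA-Glu-CTC-1, tRNA-Glu-TTC-2, tRNA-His-GTG-2 and tRNA-Lys-CTT-3 were lower in the COPD model without overlap. For tRNA-Glu-CTC-1 the log2 ratio was 1.94, 1.98 and 0.42 in COPD model lungs, against 2.33, 2.48 and 2.41 in control lungs. The difference between glycine and other tRNAs was not itself tested, and the families are not independent, as their near-identical reads share libraries and may share origin.

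How near-identical the families are shows in the CCC ladders. The 30-, 31- and 32-mers of Gly-CCC-3-M2 differ from their Gly-GCC-2-M3 counterparts at 1 base, and in every library they were counted at 0.083% to 0.118% of them. The 33-mer differs at 2 bases, since it holds the first anticodon base, and was counted at 1.09% to 3.51% of its counterpart. Whether part of the shorter CCC counts are Gly-GCC-2-M3 reads with a base error was not tested, and the ladder ratios of Gly-CCC-3-M2 and Gly-CCC-2 are given with that limit. The counts of Gly-GCC-1, which also differs at 1 base, were 1.92% to 33.2% of the counterpart of the same length and varied between lengths and libraries.

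The families also differed from each other in where the ladder peaked. In Gly-CCC-1 the 33-mer tiRNA-5 took 84.2% to 95.6% of counts, and its 32-mer the rest. In Gly-CCC-3-M2 the 33-mer took 37.3%, 50.7% and 22.4% in BMSC-treated, 37.4%, 58.8% and 30.6% in COPD model and 57.6%, 54.7% and 66.4% in control lungs. Its share in control lungs was above that in all BMSC-treated lungs, while control and COPD model lungs overlapped. In Gly-TCC-1 the 32-mer took 81.7% to 92.1%, and the 34-mer tiRNA-5 0.356% to 3.18%.

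The 6 members listed as tiRNA-5 were a small part of glycine 5′ fragments in all groups. This type follows the length, and the 32-mers of the GCC and CCC families, which stop right before the anticodon, are listed as tRF-5c. The tiRNA-5 share is thus not the share of fragments cut in the anticodon loop. Together they took 2.78%, 4.25% and 2.42% of member counts in BMSC-treated lungs, 2.75%, 5.01% and 1.47% in COPD model lungs and 4.68%, 3.99% and 5.37% in control lungs. All groups overlapped. The count-weighted mean length of all members was 31.26 ± 0.135 nucleotides in BMSC-treated, 31.49 ± 0.078 in COPD model and 31.44 ± 0.037 in control lungs (SD, n = 3 each). BMSC-treated 1 and 3 had the lowest means, at 31.18 each, but BMSC-treated 2, at 31.42, lay within the range of the other groups.

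The levels of single members were then compared with edgeR's quasi-likelihood test on the counts of all 191 tsRNAs that passed its filter, which all 29 members did. No member passed a Benjamini-Hochberg adjusted p of 0.05 in any comparison, and neither did any other tsRNA, so that the share called was 0% in each. DESeq2 called 0 members as well, and 2, 1 and 1 tsRNAs in COPD model against control, then in BMSC-treated against COPD model, and last in BMSC-treated against control. At an unadjusted p under 0.05, edgeR gave 0 members and 11 tsRNAs in the first comparison, 1 and 25 in the second, and 2 and 7 in the third. The standard errors of the members' log2 fold changes were 0.52 to 0.74. The comparisons share groups: each group enters 2 of the 3.

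The 32-mer of Gly-GCC-2-M3, the most abundant tsRNA, had 233128, 126131 and 230992 CPM in BMSC-treated, 334145, 268352 and 216910 CPM in COPD model and 282919, 152316 and 248489 CPM in control lungs. All groups overlapped. For tRF-1:32-Gly-GCC-2-M3 the log2 fold change was 0.30 (SE 0.52) in COPD model against control, -0.29 (SE 0.52) in BMSC-treated against COPD model and 0.01 (SE 0.52) in BMSC-treated against control, with edgeR adjusted p of 0.936, 0.9 and 0.996. Its 31-mer had 180481, 87446 and 181570 CPM in BMSC-treated, 120894, 98513 and 80133 CPM in COPD model and 140565, 75876 and 131961 CPM in control lungs. Here too the groups overlapped, with the shallow BMSC-treated 2 among the low values. The shift between the 31- and 32-mer was thus seen in the ratio inside each library and not in the level of either fragment, which varied between libraries of a group by more than 1.5 times.

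By length, no fitted change passed, and the directions differed between lengths. In BMSC-treated against COPD model lungs all 5 of the 30-mers and all 5 of the 31-mers had a positive log2 fold change, with medians of 0.66 and 0.61. Of the 6 32-mers, 4 had a negative one, with a median of -0.25, and of the 6 tiRNA-5 4 did, with a median of -0.38. Under all alternatives tried the 31-mers kept 5 positive values, with medians of 0.25 to 0.91, while the 30-mers had 4 positive without BMSC-treated 1 or 3. The median of the 32-mers turned to 0.014 without BMSC-treated 2, and that of the tiRNA-5 to 0.29 without COPD model 2. In COPD model against control lungs all 5 of the 31-mers were negative (median -0.18) and 4 of the 6 32-mers were positive (median 0.06), but neither was stable. The 31-mers had 3 positive values of 5 without COPD model 3 or without control 1, and the 32-mers had 2 of 6 with DESeq2, RLE factors or TMM factors without the members. Over all members the median log2 fold change was -0.15 in COPD model against control, 0.39 in BMSC-treated against COPD model and 0.08 in BMSC-treated against control, beside 0.21, -0.10 and 0.09 over all tsRNAs tested. Each of the members' medians changed sign when single libraries were left out. The first turned to 0.029 without COPD model 3 and 0.057 without control 1, with 16 members positive in both cases against 7 with all libraries. The second turned to -0.016 without BMSC-treated 1, and was 0.079 without COPD model 3. The third turned to -0.17 without BMSC-treated 1 and -0.26 without control 2, and also to -0.11 when counts were scaled by the library totals that the CPM imply, where the median of all tsRNAs was -0.13.

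In COPD model against control lungs the 0.30 of the 32-mer was the most positive log2 fold change of any member. The 28-mer of Gly-GCC-2-M3 had the most positive one in BMSC-treated against COPD model lungs, with 7539, 1019 and 6506 CPM in BMSC-treated and 3267, 2614 and 2497 CPM in COPD model lungs. For tRF-1:28-Gly-GCC-2-M3 this gave a log2 fold change of 1.09 (SE 0.67, edgeR adjusted p = 0.567), and BMSC-treated 2 lay below all COPD model lungs. The value was 0.67 without BMSC-treated 3 and 1.60 without BMSC-treated 2. In BMSC-treated against control lungs the most positive was that of the 30-mer of Gly-GCC-2-M3, at 0.79 (SE 0.57, edgeR adjusted p = 0.986 for tRF-1:30-Gly-GCC-2-M3). It was 0.34 without BMSC-treated 3, 0.45 without control 2, 1.23 without BMSC-treated 2 and 1.32 without control 1. In size, these were exceeded in each comparison by the most negative changes, given with their members below.

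Another 3 members were those whose CPM did not overlap between BMSC-treated and control lungs, all lower in BMSC-treated. This is 3 of 29 members, against 5.18% of all 193 tsRNAs, which is 10 in either direction. Those of Gly-CCC-2 and Gly-ACC-1 carry a limit from the listing, given with them below. The 33-mer tiRNA-5 of Gly-CCC-3-M2 had 296, 276 and 144 CPM in BMSC-treated lungs, 308, 643 and 146 CPM in COPD model lungs and 672, 335 and 900.0 CPM in control lungs. For tiRNA-1:33-Gly-CCC-3-M2 the log2 fold change in BMSC-treated against control lungs was -1.29 (SE 0.62, edgeR adjusted p = 0.986). Without the 3 shallowest libraries it was -1.62 and passed, with an edgeR adjusted p of 0.0441, the one member to do so under any alternative tried. In that fit 3 of 184 tsRNAs were called, 1.63%, of which this was 1.

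The 33-mer tiRNA-5 of Gly-CCC-2 had 6.58, 14 and 6.79 CPM in BMSC-treated, 21.1, 22.1 and 37 CPM in COPD model and 18.5, 37.9 and 17.2 CPM in control lungs. BMSC-treated lungs were below all others. For tiRNA-1:33-Gly-CCC-2 the log2 fold change was -1.43 (SE 0.69, edgeR adjusted p = 0.377) in BMSC-treated against COPD model lungs, the most negative of the members. The 23-mer of Gly-ACC-1 had 12.2, 11.2 and 6.79 CPM in BMSC-treated, 17.1, 30.9 and 7.84 CPM in COPD model and 26.2, 16.5 and 70.9 CPM in control lungs. Only BMSC-treated and control lungs did not overlap. For tRF-1:23-Gly-ACC-1 it was the most negative change both in BMSC-treated against control lungs, at -1.73 (SE 0.71, edgeR adjusted p = 0.604), and in COPD model against control lungs, at -0.92 (SE 0.69, edgeR adjusted p = 0.936). Without control 3 these were -1.11 and -0.54; the second was also -0.54 without COPD model 3 and -1.46 without COPD model 2. The values of these last 2 members rest on 7 to 190 counts a library. Every tsRNA listed reached at least 20.1 CPM in some library, and these 2 did not do so in any BMSC-treated library. If such a level was required for listing, they were listed only through the other groups. Their lower values in BMSC-treated lungs are thus given without being taken as support for a difference.

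A member of the TCC family was higher without overlap. The 32-mer of Gly-TCC-1 had 1678, 1590 and 1452 CPM in BMSC-treated and 1182, 1381 and 806 CPM in COPD model lungs, with a log2 fold change of 0.62 (SE 0.58, edgeR adjusted p = 0.748 for tRF-1:32-Gly-TCC-1) that was 0.37 without COPD model 3. With the 33-mer of Gly-CCC-2, to which the limit from the listing applies here too, this made 2 of 29 members without overlap between BMSC-treated and COPD model lungs. The share of all tsRNAs was 15.5%. Between COPD model and control lungs 0 of 29 members were without overlap, against 10.4% of all tsRNAs.

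The mRNA libraries give the genes known to cut, shield or charge glycine tRNA. No gene of a list of 15 passed limma's test on log2(FPKM + 1) at an adjusted p of 0.05 in any comparison, where 0.0765%, 0.127% and 0% of 11765 genes did in COPD model against control, then in BMSC-treated against COPD model, and last in BMSC-treated against control. At an unadjusted p under 0.05 limma gave 1, 2 and 0 of the 15, against 6.59%, 11.1% and 0.408% of all genes tested. Their limma adjusted p were 0.514 to 0.698, 0.375 to 0.827 and 1.0, and 14, 0 and 5 of them had a positive log2 fold change. Ang, the ribonuclease angiogenin, whose first exons are shared with its neighbour Rnase4 so that reads may be too, had 2.62, 9.42 and 12.9 FPKM in BMSC-treated, 13.2, 13.9 and 17.4 FPKM in COPD model and 3.38, 10.7 and 12.7 FPKM in control lungs. The COPD model lungs were above all others, with a log2 fold change of 0.83 (SE 0.72, limma adjusted p = 0.516) against control and -0.97 (SE 0.72, limma adjusted p = 0.385) for BMSC-treated against COPD model lungs.

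Rnh1, the inhibitor that binds angiogenin, had 6.91, 20.1 and 37.1 FPKM in BMSC-treated, 44.8, 48.2 and 44.6 FPKM in COPD model and 5.14, 24.4 and 36.1 FPKM in control lungs. All COPD model lungs were above the rest here too. For this and the other genes named, the share of all genes tested that separated the groups in the same way was not counted. The median over all genes tested was itself shifted in the same directions, as given below. Trdmt1, which methylates a base of the anticodon loop of glycine tRNA and so shields it from cleavage, had 0.406, 2.34 and 2.18 FPKM in BMSC-treated, 1.63, 2.19 and 2.61 FPKM in COPD model and 1.31, 1.4 and 1.37 FPKM in control lungs. COPD model lungs were above all control lungs, and BMSC-treated lungs overlapped with COPD model lungs and lay on both sides of control lungs. Gars, the enzyme that joins glycine to its tRNA, had 2.7, 13.6 and 15 FPKM in BMSC-treated, 15.8, 21.3 and 22.9 FPKM in COPD model and 6.78, 14.2 and 17 FPKM in control lungs. Dicer1, which cuts small RNA precursors, had 0.295, 1.3 and 1.52 FPKM in BMSC-treated, 1.47, 2.35 and 1.94 FPKM in COPD model and 0.271, 1.17 and 2.05 FPKM in control lungs. Both genes overlapped between COPD model and control lungs, and Gars alone was higher in all COPD model than in all BMSC-treated lungs.

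The mRNA libraries BMSC-treated 1 and control 1 were low in most of these genes. Control 1 was not low in Ybx1, another gene of the list, at 275 FPKM, and in Trdmt1 it lay close to the other control libraries. The list lay close to the whole table: its median log2 fold change was 0.73, -0.91 and -0.07 in the 3 comparisons, beside 0.66, -0.75 and -0.10 over all genes tested. The mRNA and tsRNA libraries carry the same numbers, but the labels do not say that a number marks 1 mouse, so the genes were not related to the fragments library by library.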

How the data were processed

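Lung tsRNA was measured in 9 libraries and mRNA in 9 others, 3 per group, grouped and numbered by the labels. Per the labels' protocols, total RNA was extracted with Trizol, 1.5 µg was used per sample, and RNA for tsRNA libraries was pretreated to remove modifications that hinder library construction. Such pretreatment and ligation can change which fragment ends are read. The submitters' processing notes name Bowtie, StringTie, cutadapt, FastQC and build mm10. Their roles and versions were not given in the sources used here, nor was the number of mismatches allowed or how reads of near-identical tRNAs were assigned. The tsRNA values are raw read counts per the file headers, deposited without normalization. The same tsRNAs were deposited in CPM, scaled by the authors to mapped reads, and the listed tsRNAs were 42.6% to 70.6% of the library totals that these imply. A floor of 3 counts corresponds to 1.12 to 3.36 CPM. The mRNA values were deposited by the authors as FPKM, and the depth of these libraries is unknown.

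Shares, ladders and ratios were computed from the counts, with 95% Wilson intervals. The quasi-likelihood test of edgeR 4.0.16 was run on the counts, after filterByExpr, with the sums of listed counts as library sizes and TMM factors, in 1 fit of all 9 libraries, with Benjamini-Hochberg adjustment over 191 tsRNAs and a threshold of 0.05. Genes with at least 1 FPKM in at least 3 libraries were tested with limma 3.58.1 on log2(FPKM + 1) with a mean-variance trend. Fold changes on that scale understate changes of low genes. Both were run on simulated data with larger changes than the members or listed genes showed. For edgeR the simulated spread was also smaller than that of these data, whose common biological coefficient of variation was 0.545. The simulations check the code and say nothing on the power to find changes of the size seen here. DESeq2 1.42.0, R 4.3.3, Python 3.11.15, pandas 2.3.3 and scipy 1.17.1 were also used.

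Members named are the 6 most abundant and the most abundant of each anticodon and type. Also named are any called and the largest and most negative change per comparison. The 33-mer tiRNA-5 of Gly-CCC-3-M2, which did not overlap between BMSC-treated and control lungs, was named after its values were seen. The members, lists and rules were chosen with earlier results of these data known. The replicate numbers were checked for pairing. Between BMSC-treated and control libraries the deviations of same-numbered libraries correlated at 0.179 to 0.725, which is over 0.1 in every pair and comes from the data, not the labels. BMSC-treated 3 correlated more with control 1, at 0.216, than with control 3, at 0.179. The libraries with the highest value, BMSC-treated 2 and control 2, are both among the shallowest.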

Additional observations from a re-analysis of the deposited data

How the results depend on the processing

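The spread between 3 libraries a group limits most values, and counting limits the rarest members, with 7 counts at the lowest. The number of members called by edgeR was 0 with DESeq2, RLE factors, library totals implied by CPM, TMM factors without the members, no filter, fits of 2 groups, and with each library left out. It was 1 in BMSC-treated against control without the 3 shallowest libraries, an alternative chosen after seeing the data, in which 3 of 184 tsRNAs were called. With the replicate number as a block it was 0 in all 3 comparisons. In BMSC-treated against control, same-numbered libraries correlated at 0.179 to 0.725, and 2 of 3 correlated best with their own number. In the other comparisons same-numbered libraries correlated at -0.603 to 0.444 (COPD model against control) and -0.346 to 0.527 (BMSC-treated against COPD model). Of these, 1 of 3 correlated best with its own in each. In every comparison the labels give same-numbered libraries only a shared number. The members' adjusted p under all alternatives ranged from 0.524 to 0.999, from 0.0563 to 0.997 and from 0.0441 to 1.0 in COPD model against control, then BMSC-treated against COPD model, and last BMSC-treated against control, the order kept below. The number of partner genes called by limma was 0 in each comparison under every alternative, the replicate block included.

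Of 714 log2 fold changes of named members under alternatives, 46 had another sign than the main value and none of these passed. For the 32-mer of Gly-GCC-2-M3, leaving out 1 library gave -0.027 to 0.67, -0.61 to 0.038 and -0.32 to 0.39; in the last comparison library totals gave -0.21 and TMM factors without the members -0.037. With 1 library left out, the difference in the members' share of listed counts was -2.29 to 5.79, -7.99 to 3.87 and -5.91 to 6.67 percentage points, which has no stable direction. The tiRNA-5 share differed by -2.57 to -0.803, -0.728 to 1.04 and -2.08 to -1.17 points, and by -2.42 in the last comparison without the 3 shallowest libraries. Without them the mean length differed by 0.116 nucleotides in the first comparison and -0.356 in the second, and the 32-mer share of Gly-GCC-2-M3 by 9.36 and -19.9 points. With 1 library left out this share differed by 6.36 to 8.46, -19.0 to -15.5 and -11.6 to -8.08 points. In the Gly-GCC-1 ladder the first difference was 3.59 points. The cause of these differences between settings was not tested.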
